A study of Mus musculus with 12 samples.

Results

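The genes described here are 10 genes of MHC antigen presentation, chosen by their symbols from a table of 24411 gene symbols: B2m, H2-K1, H2-D1, Tap1, Tap2, Tapbp, Nlrc5, Cd74, H2-Aa and H2-Ab1. All 10 were in the table, and 8 of them passed the filter on low counts that 11578 symbols passed. Cd74 and H2-Aa did not. H2-Ab1 passed only through the groups in which it was high.

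RNA was sequenced in HoxB8 cells, mouse bone marrow cells immortalised by a Hoxb8 protein that depends on estrogen. All libraries were taken 24 h after estrogen was withdrawn from cells that had grown with stem cell factor. Every population carried both vectors, pMIG and pMICH. Empty/Empty had both vectors empty, Empty/T618I carried CSF3R with the T618I change in pMICH, Asxl1-MT2/Empty carried a truncated Asxl1 in pMIG, and Asxl1-MT2/T618I carried both. CSF3R is the receptor for granulocyte colony-stimulating factor, T618I is a change found in myeloproliferative neoplasms, and ASXL1 is a chromatin regulator. The series asked how the truncated Asxl1 acts in cells with the mutant receptor. Each group had 3 libraries, named here by the letters A to C of the table's columns. The labels name no separate cultures, so the p-values rest on differences among these libraries alone, and those may be technical. The cells are one immortalised line with vector-borne constructs.

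MHC class I molecules show peptides from the cell's own proteins to CD8 T cells. Each consists of a heavy chain, in mouse encoded by H2-K1 or H2-D1 among others, and the invariant light chain beta-2 microglobulin (B2m). The proteasome cuts the peptides, the transporter formed by Tap1 and Tap2 carries them into the endoplasmic reticulum, and tapasin (Tapbp) holds empty class I molecules next to that transporter. Nlrc5 is a transcriptional activator of these genes. MHC class II molecules, made of an alpha chain such as H2-Aa and a beta chain such as H2-Ab1, show peptides from taken-up material, and the invariant chain Cd74 guards their groove until it is loaded. Class II expression depends on the transactivator Ciita and is typical of dendritic cells, B cells and macrophages, while class I is found on nearly all nucleated cells.

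B2m lies on chromosome 2, from 122147686 to 122153083 on the plus strand of GRCm38. Nlrc5 lies on chromosome 8 (94434356 to 94527272), and Cd74 also lies outside the MHC. The other members lie in the MHC on chromosome 17: Tapbp from 33915899 to 33929292, H2-K1 from 33996017 to 34000347 on the minus strand, Tap1 from 34187553 to 34197225, Tap2 from 34203527 to 34216321, H2-Ab1 from 34257689 to 34269419, H2-Aa from 34282744 to 34287823 on the minus strand, and H2-D1 from 35262730 to 35267499. Psmb9, which encodes a catalytic subunit of the immunoproteasome, overlaps the first bases of Tap1 on the opposite strand. The strand setting of the authors' counting is not given in the sources used here, so reads in that overlap cannot be assigned to one of the pair. By gene bounds, B2m also overlaps Patl2 on the opposite strand, and Tapbp overlaps Zbtb22 on the same strand. Tap2, Nlrc5 and Cd74 overlap non-coding genes. How far exons are shared in these overlaps was not examined.

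The promoters of B2m and H2-K1 are shown because both chains of the class I molecule fell together with T618I. The RefSeq promoter table (GRCm38.p6) held 6 of the 10 members. The stretches run up to the base before the annotated transcript, at chr2:122147437-122147685 on the plus strand for B2m and chr17:34000348-34000597 on the minus strand for H2-K1. Capitals mark matches to the motifs searched.
B2m: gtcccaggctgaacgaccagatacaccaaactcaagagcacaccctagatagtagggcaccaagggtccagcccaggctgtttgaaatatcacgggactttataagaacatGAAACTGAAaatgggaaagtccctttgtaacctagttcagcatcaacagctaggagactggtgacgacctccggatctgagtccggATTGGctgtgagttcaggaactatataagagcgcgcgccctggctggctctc
H2-K1: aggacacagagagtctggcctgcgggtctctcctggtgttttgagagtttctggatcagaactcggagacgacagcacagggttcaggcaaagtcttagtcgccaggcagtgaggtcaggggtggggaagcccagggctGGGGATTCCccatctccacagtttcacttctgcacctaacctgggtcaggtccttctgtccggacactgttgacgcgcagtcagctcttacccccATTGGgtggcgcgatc

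On both strands of the 250 bases before each start, 5 patterns were searched: an interferon regulatory factor element (GAAANNGAA), a gamma-activated site (TTCNNNGAA), a kappa-B-like site (GGGNNTTCC), an X1-box-like site (TAGCAAC) and the Y box (CCAAT, read as ATTGG on the other strand). B2m held the interferon regulatory factor element with its first base at -139 and a Y box at -53. H2-K1, which has 2 annotated starts and was read from the one farthest upstream, held a kappa-B-like match at -111 and a Y box at -16. H2-D1 held the same kappa-B-like letters at -171 and a Y box at -76 and at -53. Tap1 had only a Y box, at -222, and Tapbp had one at -248 and another at -165. Of 32817 mouse promoters of the same length, 7.12% held the interferon regulatory factor element, 7.01% the gamma-activated site, 4.97% the kappa-B-like site, 3.16% the X1-box-like site and 33.8% a Y box. A match describes the letters and is no evidence of binding.

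Library totals ran from 9341984 to 10252291 counts. Socs3, a feedback gene of the receptor's signalling, lay between 11.9 and 13.8 CPM (counts scaled to a common library total) in the 3 Empty/Empty columns and between 151 and 176 CPM in Empty/T618I. One library titled Empty/Empty carries a genotype label that names T618I, and its column is not given, so fits were repeated without each of the 3 libraries. Asxl1 was at 1744 CPM in Asxl1-MT2/Empty and 1004 CPM in Asxl1-MT2/T618I, against 119 in Empty/Empty and 149 in Empty/T618I. Levels below are CPM scaled by TMM factors, which correct the totals for a few very abundant genes. Changes are log2 fold changes with their standard error (SE) from the quasi-likelihood test of edgeR, and "rose" or "fell" is used at a Benjamini-Hochberg adjusted p under 0.05 over the 11578 genes.

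Per kilobase of exon, B2m was the highest of the 10 genes in every group, at 1048 ± 101 CPM per kilobase in Empty/Empty (SD, n = 3). H2-K1 followed at 312 ± 11.9 and H2-D1 at 128 ± 24.0. Tap2 (56.4 ± 1.96), Tapbp (53.2 ± 1.54) and Tap1 (41.9 ± 0.482) formed the middle, and the libraries of Tap2 and Tapbp overlapped. H2-Ab1 was at 3.45 ± 0.949 and Nlrc5 at 2.41 ± 0.0474, while Cd74 and H2-Aa were near 0. The class I chains thus stood well over the class II genes in length-corrected level. In Empty/T618I and Asxl1-MT2/T618I, Tapbp ranked above Tap2, and in Empty/T618I its libraries overlapped those of H2-D1. H2-Ab1 dropped below Nlrc5 in both T618I groups.

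**Figure D1:**
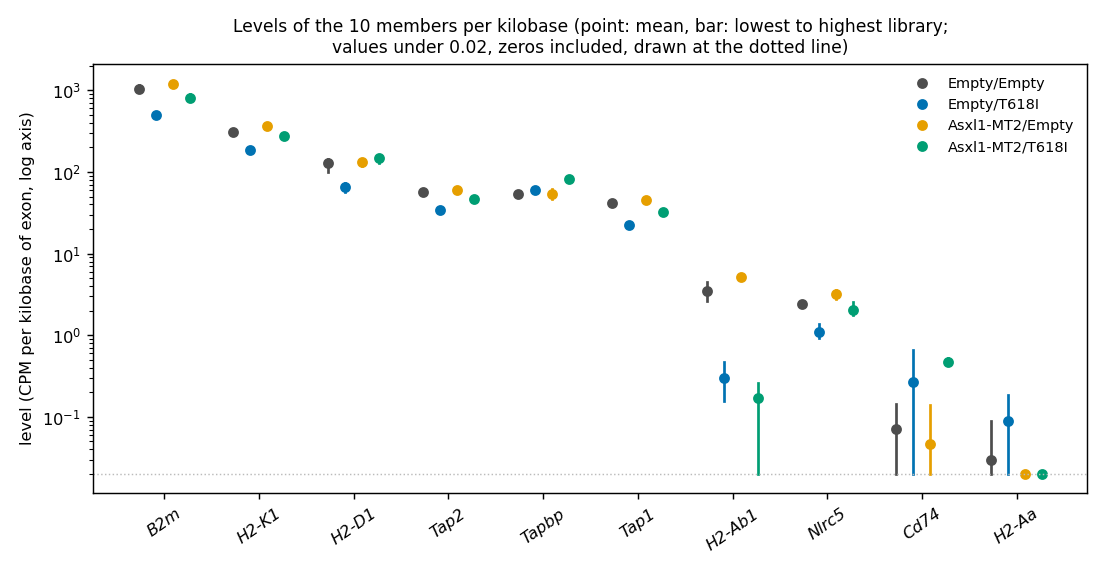
Level of each member in CPM per kilobase of exon (log axis), with the group mean as a point and the lowest to highest library as a bar, for the 4 groups. B2m stands highest in every group, at 1048 CPM per kilobase in Empty/Empty, and H2-Ab1 drops below Nlrc5 in the T618I groups.

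The light chain B2m fell with T618I alone. In the order A, B, C, B2m was at 997, 876 and 830 CPM with both vectors empty, at 417, 456 and 409 with T618I alone, at 1048, 1037 and 962 with Asxl1-MT2 alone and at 694, 770 and 635 with both constructs. The Empty/T618I libraries were the lowest, and the double-construct libraries lay between them and both groups without T618I, with no overlap. With T618I alone B2m fell by 1.08 ± 0.0902 on the log2 scale (edgeR adjusted p = 4.5e-08), to 0.474 of the Empty/Empty level.

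The heavy chain H2-K1 was at 493, 527 and 527 CPM with both vectors empty, 317, 310 and 305 with T618I alone, 639, 631 and 551 with Asxl1-MT2 alone, and 457, 457 and 435 with both constructs. Its 4 groups did not overlap, and their order was the same as for B2m. It fell by 0.73 ± 0.0752 with T618I alone (edgeR adjusted p = 5.8e-07).

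H2-D1, the other classical heavy chain measured, was at 302, 292 and 210 CPM with both vectors empty, 144, 153 and 120 with T618I alone, 293, 286 and 251 with Asxl1-MT2 alone, and 337, 324 and 272 with both constructs. Only Empty/T618I stood apart: the other 3 groups overlapped. H2-D1 fell by 0.95 ± 0.130 with T618I alone (edgeR adjusted p = 2.3e-05). The letter C library was the lowest of its group in all 4 groups for B2m and H2-D1, as it was for 5.27% of the genes tested.

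The peptide transporter moved with the chains. Tap1 was at 122, 124 and 125 CPM with both vectors empty, 71.9, 65.8 and 62.7 with T618I alone, 138, 144 and 122 with Asxl1-MT2 alone, and 96.8, 95.8 and 91.2 with both constructs. Tap2, its partner subunit, was at 198, 198 and 186 CPM with both vectors empty, 123, 114 and 119 with T618I alone, 200, 220 and 196 with Asxl1-MT2 alone, and 156, 168 and 160 with both constructs. For both subunits Empty/T618I was lowest, the double-construct group came next, and the 2 groups without T618I overlapped. With T618I alone Tap1 fell by 0.89 ± 0.0815 and Tap2 by 0.71 ± 0.0736 on the log2 scale (edgeR adjusted p = 1.4e-07 and 6.2e-07).

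Tapasin had another order. Tapbp was at 159, 150 and 154 CPM with both vectors empty, 173, 167 and 189 with T618I alone, 179, 151 and 135 with Asxl1-MT2 alone, and 248, 235 and 226 with both constructs. The double-construct libraries were above all others, and Asxl1-MT2/Empty overlapped Empty/Empty and Empty/T618I. Its log2 fold change with T618I alone was 0.19 ± 0.0913 (edgeR adjusted p = 0.122).

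The activator Nlrc5 was at 19.1, 19.8 and 19.8 CPM with both vectors empty, 8.36, 11.1 and 7.51 with T618I alone, 22.4, 28.7 and 25.8 with Asxl1-MT2 alone, and 20.9, 14.3 and 14.3 with both constructs. Empty/T618I was below all other libraries, and the library A of the double-construct group lay above the Empty/Empty range. Nlrc5 fell by 1.12 ± 0.169 with T618I alone (edgeR adjusted p = 4.7e-05).

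**Figure D2:**
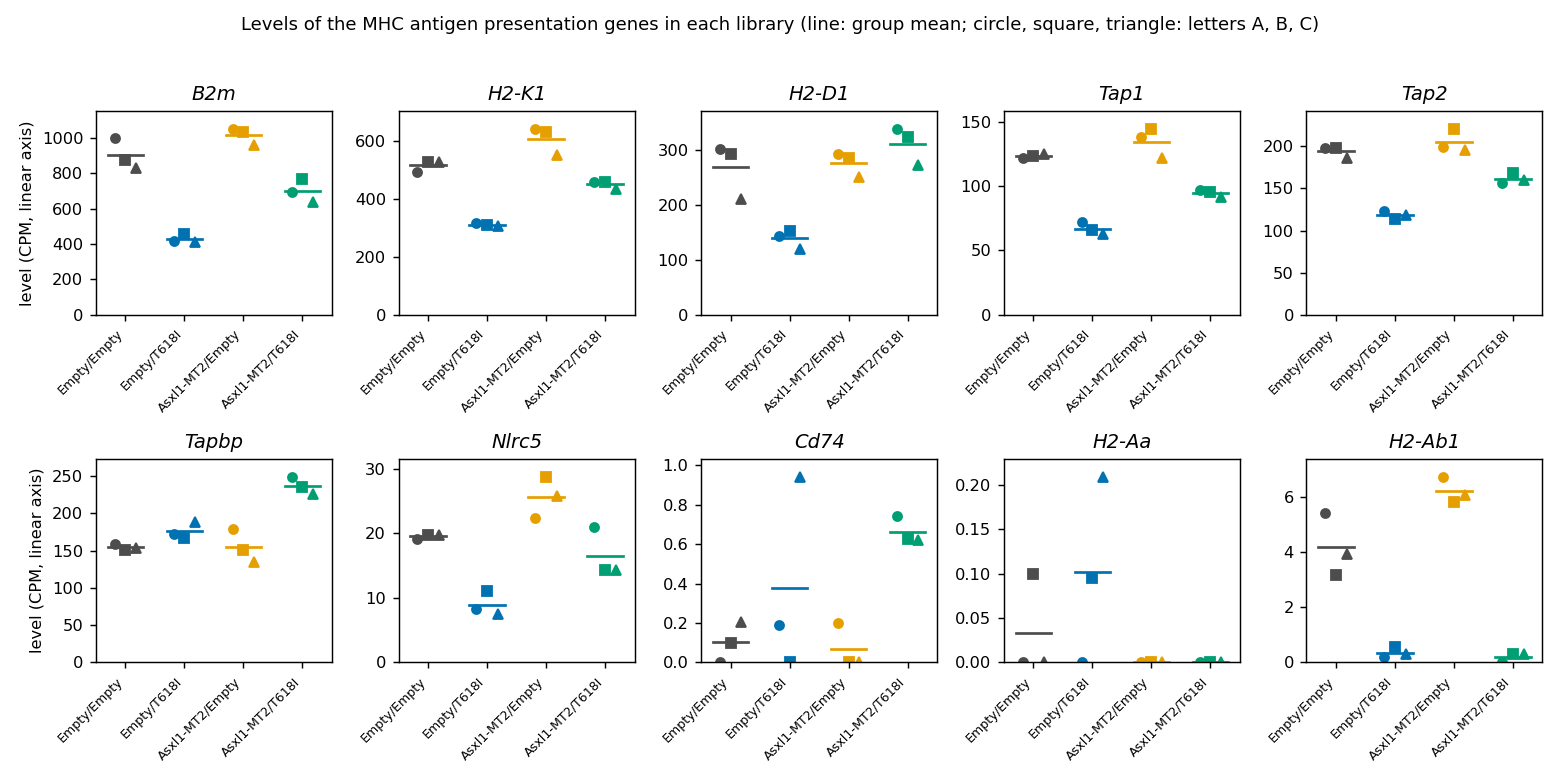
Level of each of the 10 members in the 12 libraries, in CPM on a linear axis that starts at 0 and differs between panels; points are libraries, with their shape giving the letter, and lines are group means. B2m, H2-K1, H2-D1, Tap1, Tap2 and Nlrc5 are lowest in the 3 Empty/T618I libraries, Tapbp is highest in Asxl1-MT2/T618I, and H2-Ab1 is near 0 in both T618I groups.

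The class II genes were low throughout. H2-Ab1, the class II beta chain, had 54, 32 and 38 counts with both vectors empty, 2, 6 and 3 with T618I alone, 68, 59 and 61 with Asxl1-MT2 alone, and 0, 3 and 3 with both constructs. The 6 libraries with T618I lay far below the 6 without it, whether or not Asxl1-MT2 was present. Because H2-Ab1 passed the filter on low counts only through the groups without T618I, its fall is given as counts with no test. With T618I alone the summed counts, scaled to library size, had a ratio of 0.0864 (exact 95% interval 0.0421 to 0.160, which covers counting error only). With T618I added to Asxl1-MT2 the ratio was 0.0337 (0.0122 to 0.0747), and with both constructs against neither 0.0501 (0.0180 to 0.112).

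Its partner chain H2-Aa had 0, 1 and 0 counts in Empty/Empty, 0, 1 and 2 in Empty/T618I, and 0 in all 6 libraries with Asxl1-MT2. Ciita, the class II transactivator, had a single count in 1 Empty/Empty and 1 Asxl1-MT2/Empty library and 0 elsewhere, and H2-Eb1, another beta chain, had 1 count in 2 libraries. Counts of both H2-Aa and H2-Ab1 in one library were seen in Empty/Empty B and in Empty/T618I B and C, with 1 or 2 counts of H2-Aa.

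Cd74, the invariant chain, had 0, 1 and 2 counts with both vectors empty, 2, 0 and 9 with T618I alone, 2, 0 and 0 with Asxl1-MT2 alone, and 7, 6 and 6 with both constructs. The double-construct group was the only one with several counts in every library. Its 19 counts stood against 2 in Asxl1-MT2/Empty, a ratio of 10.0 (exact 95% interval 2.42 to 88.8), and against 3 in Empty/Empty, a ratio of 6.56 (1.93 to 34.6). With the filter on low counts removed, edgeR gave Cd74 an adjusted p of 0.0175 and 0.0360 for those comparisons. Cd74 and H2-Ab1 thus stood in opposite order between the double-construct group and the groups without T618I, both at very low levels.

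Markers of other cell types were counted beside these values. The summed level of 10 B cell markers ran from 25.8 to 30.0 CPM with both vectors empty and 1.73 to 2.96 with T618I alone. It ran from 22.5 to 30.3 with Asxl1-MT2 alone and 3.08 to 4.70 with both constructs, so it was low in the same groups as H2-Ab1. With both vectors empty, Igll1 (surrogate light chain, 19.5 CPM) and Cd79b (5.59 CPM) made up most of the sum. Cd79a (10, 12, 17 and 21 summed counts in that order of groups) and Cd22 (1, 4, 0 and 6) did not follow it. Ms4a1, Pax5 and Blk were at 0 in all libraries, and Igll1, Cd79b and Ebf1 were the 3 tested. Igll1 and Ebf1, like H2-Ab1, passed the filter on low counts only through the groups without T618I. Igll1 had 578 summed counts with both vectors empty and 13 with T618I alone, and Ebf1 had 53 and 9. Cd79b fell with T618I alone. The part of such cells in the H2-Ab1 result was not tested. The 10 dendritic cell markers summed to between 2.17 and 9.34 CPM over all libraries, with Siglech, Ccr7 and Cd209a at 0, and the 8 T and NK cell markers to between 2.50 and 6.78 CPM, with Cd3e, Cd8a, Ncr1 and Klrb1c at 0.

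With T618I alone, 6 of the 7 tested members other than H2-Ab1 fell and none rose, where 15.9% of all genes tested fell and 17.6% rose. The median log2 fold change of the 7 was -0.89, against 0.00365 over all genes. The 6 calls held in each of the 12 fits that left out 1 library. In RNA from whole cultures, fewer cells of a kind and less RNA per cell cannot be told apart. Of the 11 granulocyte markers, all tested, 5 fell with T618I alone and 3 rose. Mpo, Elane, Prtn3, Ctsg and Camp fell, with Mpo, the myeloperoxidase gene and the most abundant of them, going from a mean of 29732 to 12001 CPM, while Cxcr2 (24.1 to 193 CPM), S100a9 (1.70 ± 0.215) and S100a8 (1.27 ± 0.250 on the log2 scale) rose. The summed level, of which Mpo was the larger part except with both constructs, ran from 33945 to 42857 CPM with both vectors empty, 17656 to 20921 with T618I alone, 38140 to 43278 with Asxl1-MT2 alone and 32314 to 34190 with both constructs. That of the 6 mast cell and basophil markers ran from 725 to 898, 1948 to 3499, 398 to 474 and 1804 to 2012 CPM in the same order of groups. Hoxb8, the immortalising gene, was at 661 ± 40.0, 291 ± 45.4, 720 ± 65.0 and 571 ± 13.5 CPM (SD, n = 3). The part of these shifts in the fall of the class I genes was not tested.

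With Asxl1-MT2 alone, no tested member was called by edgeR, where 1.21% of all genes rose and 0.553% fell. Of the 7 tested members other than H2-Ab1, 2 had an unadjusted edgeR p under 0.05, where 10.9% of all genes tested were under it. They were H2-K1 (log2 fold change 0.24 ± 0.0745, adjusted p = 0.154) and Nlrc5 (0.39 ± 0.153, adjusted p = 0.314). H2-Ab1 had 188 against 124 counts, a ratio of 1.49 (exact 95% interval 1.18 to 1.88, which covers counting error only). In edgeR H2-Ab1 was not called here (adjusted p = 0.441). DESeq2 called 1, H2-K1, at 0.24 with an adjusted p of 0.0262. H2-K1 also passed in edgeR without Asxl1-MT2/Empty library C (adjusted p = 0.0438). The smallest estimates were those of H2-D1 (0.04 ± 0.127) and Tapbp (0.01 ± 0.0915). The median of the 7 other than H2-Ab1 was 0.12, against 0 over all genes.

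With Asxl1-MT2 added to T618I, all 7 tested members other than H2-Ab1 rose, where 25.4% of all genes rose and 18.5% fell. H2-D1 had the largest of these changes at 1.16 ± 0.130 on the log2 scale (edgeR adjusted p = 2.6e-06), to 2.24 times its Empty/T618I level. Nlrc5 rose by 0.87 ± 0.172, B2m by 0.71 ± 0.0898, H2-K1 by 0.53 ± 0.0751, Tap1 by 0.50 ± 0.0819, Tap2 by 0.44 ± 0.0738 and Tapbp by 0.42 ± 0.0907, with edgeR adjusted p-values from 6.0e-06 for B2m to 0.0011 for Tapbp. H2-Ab1 had 6 against 11 counts, a ratio of 0.579 (exact 95% interval 0.176 to 1.71). The comparison shares the Empty/T618I libraries with that of T618I alone, so the fall there and the rise here are not independent of each other. Of the 10 monocyte and macrophage markers 7 were tested, of which 5 rose with Asxl1-MT2 added and none fell, while Cx3cr1 (-0.83 ± 0.349) and Fcgr1 (-0.04 ± 0.185) were not called. With T618I alone Csf1r, Adgre1 and Fcgr1 had risen and Ly6c2 had fallen. Ly6c2 averaged 180 CPM with Asxl1-MT2 alone, against 142 with both constructs. The sum of the 10 ran from 184 to 200 CPM in Empty/T618I and from 436 to 596 in Asxl1-MT2/T618I, against 254 to 275 in Empty/Empty and 322 to 371 in Asxl1-MT2/Empty. Among the 11 granulocyte markers 7 rose in this comparison and none fell. Among the 6 mast cell and basophil markers 4 fell and none rose. The part of these shifts in the rise of the members was not tested.

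With T618I added to Asxl1-MT2, 5 of the 7 fell and 1 rose, where 22.8% of all genes fell and 26.9% rose. B2m fell by 0.54 ± 0.0892, Tap1 by 0.51 ± 0.0801, H2-K1 by 0.43 ± 0.0747, Tap2 by 0.35 ± 0.0729 and Nlrc5 by 0.64 ± 0.156 on the log2 scale. Tapbp rose by 0.61 ± 0.0911 (edgeR adjusted p = 2.5e-05). H2-D1 was not called, at 0.17 ± 0.127 (adjusted p = 0.287), but passed without the letter C libraries (0.19, adjusted p = 0.0253).

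With both constructs against neither, 4 of the 7 fell and 1 rose, where 23% of all genes fell and 27.4% rose. Tap1 fell by 0.39 ± 0.0803, B2m by 0.37 ± 0.0891 and Tap2 by 0.27 ± 0.0729, while Tapbp rose by 0.61 ± 0.0911. H2-K1 fell by 0.20 ± 0.0747 (edgeR adjusted p = 0.0354), a call that ended without Empty/Empty library B or C or any one Asxl1-MT2/T618I library (adjusted p up to 0.104). H2-D1 (0.21 ± 0.127, adjusted p = 0.177) and Nlrc5 (-0.25 ± 0.159, adjusted p = 0.206) were not called. Nlrc5 passed without Asxl1-MT2/T618I library A (-0.46, adjusted p = 0.0254) and with library totals alone (-0.38, adjusted p = 0.0453).

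**Figure D3:**
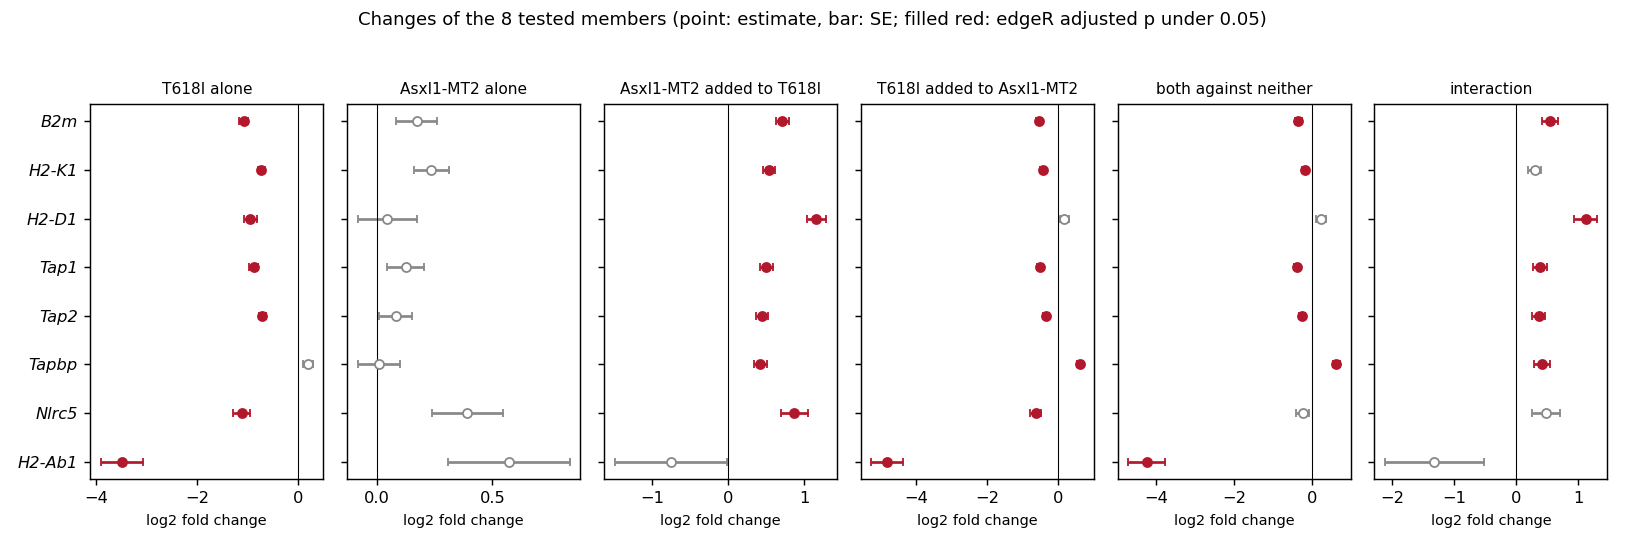
Log2 fold change of the 8 tested members in the 5 comparisons and the interaction, with SE as bars; the horizontal axes differ between panels, and filled red points have an edgeR adjusted p under 0.05. Beside H2-Ab1, which passed the filter only through its high groups, 6 of 7 points are called below 0 with T618I alone, and 7 of 7 above it with Asxl1-MT2 added to T618I.

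The interaction asks whether the effect of T618I differed with and without Asxl1-MT2, and positive values mean a higher effect with it. It was called for 5 members, all positive, where 14.1% of all genes were called positive and 5.55% negative. For H2-D1 it was 1.12 ± 0.182 (edgeR adjusted p = 0.00043): the effect of T618I was -0.95 without Asxl1-MT2 and 0.17 with it. For B2m it was 0.54 ± 0.126 (adjusted p = 0.0059), with effects of -1.08 and -0.54. The calls for H2-D1 and B2m held in each fit that left out 1 library.

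Tapbp (0.42 ± 0.129, adjusted p = 0.0296), Tap1 (0.38 ± 0.114, adjusted p = 0.0265) and Tap2 (0.36 ± 0.103, adjusted p = 0.0192) also passed. The Tap1 call ended without Empty/Empty B, Empty/T618I B or C, Asxl1-MT2/Empty C, or Asxl1-MT2/T618I A or B (adjusted p up to 0.0691). The Tap2 call ended without Empty/Empty B, Empty/T618I B or Asxl1-MT2/T618I B (up to 0.0681). The Tapbp call ended without library A or B of Empty/Empty, of Empty/T618I or of Asxl1-MT2/T618I, or without B or C of Asxl1-MT2/Empty (up to 0.0784). H2-K1 was at 0.30 ± 0.106 (adjusted p = 0.0552) and Nlrc5 at 0.48 ± 0.231 (0.154). The H2-K1 value passed with DESeq2 (0.29, adjusted p = 0.0160), with the library letter as a block (0.30, adjusted p = 0.0318), and in edgeR without Asxl1-MT2/Empty library A (0.34, adjusted p = 0.0476).

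The 2 heavy chains were also compared within libraries. The ratio of H2-D1 to H2-K1 CPM, not corrected for length, was 0.522 ± 0.111 with both vectors empty, 0.447 ± 0.0510 with T618I alone, 0.456 ± 0.00262 with Asxl1-MT2 alone and 0.690 ± 0.0588 with both constructs (SD, n = 3). The double-construct libraries ran from 0.624 to 0.738, above the highest of any other group, 0.613. An exact two-sided permutation test gave p = 0.1 against each of the 3 other groups, the smallest that 3 against 3 libraries can give.

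Class I heavy chain genes resemble each other. Of the 50-base windows in the annotated transcripts of H2-D1, 14.3% also occur in another gene, most often H2-Q1 (7.40%), and for H2-K1 the share is 7.89%, most often H2-D1 (6.24%). At 100 bases the shares are 4.64% and 0%. B2m, Nlrc5 and H2-Ab1 share none at either length. Values of the heavy chains are therefore uncertain to the extent that the counting split such reads. With 19 class I symbols summed into 1, the fall with T618I alone was 0.68 and the rise with Asxl1-MT2 added 0.72 on the log2 scale, and the interaction was 0.52 (edgeR adjusted p = 0.0042). The summed class I level was not called for T618I added to Asxl1-MT2, at -0.16 (adjusted p = 0.127).

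Scaling matters for the double-construct group, whose TMM factors (0.919 to 0.959) were the lowest. Using library totals alone moved the median of all genes by -0.105 to -0.127 in the comparisons that involve it. The share of called genes that were higher then went from 57.9% to 39.1% for Asxl1-MT2 added to T618I, from 54.1% to 40.4% for T618I added to Asxl1-MT2, from 54.4% to 39.0% for both against neither and from 71.7% to 48.2% for the interaction. No called change of a member turned its direction, but the interaction calls of Tap1 (0.27), Tap2 (0.26) and Tapbp (0.31) ended.

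Other genes of the pathway came from lists. Genes that passed the filter on low counts only through the groups in which they were high are in the list counts too. With T618I alone 15.9% of all genes fell and 17.6% rose, shares that stand beside the counts of every list below. Of 24 class I heavy chain genes, 10 were tested, and with T618I alone 3 fell and 2 rose. The third to fall was H2-Q4, at -1.20 ± 0.151, a non-classical class I gene that went from 51.2 ± 3.04 to 22.3 ± 4.07 CPM (SD, n = 3). H2-T23, which encodes Qa-1, the ligand of inhibitory receptors on NK cells, rose by 1.28 ± 0.123 from 23.5 ± 3.56 to 57.3 ± 5.56 CPM, and H2-T24 rose by 1.09 ± 0.185. With Asxl1-MT2 added, H2-Q4 rose by 1.12 ± 0.151, and H2-T23 was not called (0.23, adjusted p = 0.114). The direction with T618I alone thus differed between class I genes. H2-Q4 and H2-T23 share 24.3% and 28.8% of their 50-base windows with other genes, so their values are uncertain too. At 0 counts in all libraries were 10 class I genes, H2-L and H2-Q7 among them. H2-Q7 shares 32.5% of its 50-base windows with other genes, so its 0 is uncertain too. Whether these zeros come from absent RNA or from the counting was not tested.

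In the peptide loading list 6 of 11 tested genes fell with T618I alone and none rose, where 15.9% of all genes fell and 17.6% rose. Beside B2m, Tap1 and Tap2 these were the chaperones Calr (-0.49 ± 0.0971), Hspa5 (-0.36) and Pdia3 (-0.31). With Asxl1-MT2 added to T618I, 5 rose and 5 fell, where 25.4% of all genes rose and 18.5% fell. All 4 members of the list rose, with Tapbpl, a tapasin relative (0.27), while Calr (-0.39), Hspa5 (-0.49), Pdia3 (-0.25), Canx (-0.35) and Sec61a1 (-0.38) fell. Calr went from 6653 ± 302 CPM in Empty/Empty to 4744 ± 147 with T618I alone and 3610 ± 508 with both constructs. The Tapbpl call ended under 12 other settings, DESeq2 and library totals among them (adjusted p up to 0.262), and the Pdia3 call without Asxl1-MT2/T618I library A (adjusted p = 0.0880). Calr and Hspa5 thus fell in both comparisons, while B2m, Tap1 and Tap2 fell in the first and rose in the second.

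Of 6 immunoproteasome and activator genes, only Psmb9 was called with T618I alone. It fell by 0.94 ± 0.109, from 57.0 ± 3.08 to 29.7 ± 3.29 CPM, and rose by 0.74 ± 0.110 with Asxl1-MT2 added. Psmb8, which lies between Tap1 and Tap2, had -0.25 (adjusted p = 0.0686), and Psmb10, encoded elsewhere, had 0.20 (adjusted p = 0.273). Psmb9 is the gene that overlaps Tap1.

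Of 8 tested MHC transactivators, Nlrc5 and Rfx5 (-0.30, adjusted p = 0.0313) fell with T618I alone and Nfyb (0.64 ± 0.0852) rose. Rfx5 belongs to the factor that binds the X box, and Nfyb to the factor that binds the Y box. The Rfx5 call ended without any one of Empty/Empty A or B, any Empty/T618I library, or Asxl1-MT2/T618I B, with values up to 0.132. With Asxl1-MT2 added, Nlrc5 was the only one of the 8 called, where 25.4% of all genes rose and 18.5% fell.

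In the class II list 5 genes were tested. With T618I alone H2-DMb2 (-1.56 ± 0.332) and H2-DMa (-0.74 ± 0.205), subunits of the peptide editor H2-M, fell, and H2-Oa (0.91 ± 0.217), a subunit of its inhibitor H2-O, rose. The H2-DMa call ended without the letter C libraries (adjusted p = 0.0534). With Asxl1-MT2 added, H2-DMb1 rose by 1.43 ± 0.338. Of 9 tested class II processing genes 5 rose with T618I alone, where 17.6% of all genes rose and 15.9% fell. The costimulatory gene Cd80 (-1.58 ± 0.346, edgeR adjusted p = 0.0016) was the 1 that fell. With Asxl1-MT2 added 8 rose, where 25.4% of all genes rose. Ctss and March1, among the 5, passed the filter on low counts only through the T618I groups. Ctsh and Cd86, among the 8, passed it only through the double-construct group. The protease gene Ctsl rose by 1.51 ± 0.174 and then by 1.24 ± 0.150. March1, whose product removes class II from the surface, had 23 summed counts in Empty/Empty and 110 in Empty/T618I. It rose by 2.89 ± 0.234 with Asxl1-MT2 added.

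Interferon signalling is a known inducer of class I genes. Of 14 tested genes of the interferon gamma arm, 6 rose and 2 fell with T618I alone, where 17.6% of all genes rose and 15.9% fell. Irf1, a direct activator of class I and Tap1, rose by 0.39 ± 0.0976 (edgeR adjusted p = 0.0044), from 36.1 ± 1.98 to 47.4 ± 1.29 CPM. The receptor chain Ifngr1 fell by 0.67 ± 0.0762. Socs1, an inhibitor of the pathway, had 9 summed counts in Empty/Empty and 413 in Empty/T618I. Socs1 and Gbp2, both among the 6, passed the filter on low counts only through the T618I groups. Ifng itself was at 0 in all libraries.

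With Asxl1-MT2 added to T618I, 9 genes of that arm rose and 1 fell, where 25.4% of all genes rose and 18.5% fell. Irf1 rose by 0.70 ± 0.0942 to 76.8 ± 8.92 CPM, Irf2 by 0.81 ± 0.0945 and Ifngr1 by 0.54, while Socs1 fell by 1.12 ± 0.222. Of 12 tested type I interferon targets, 3 rose and 1 fell with T618I alone, where 17.6% of all genes rose and 15.9% fell. With Asxl1-MT2 added, 9 of these targets rose and 1 fell. By group means, Irf1 and Tapbp were higher in both T618I groups than in Empty/Empty, and B2m, H2-K1, Tap1, Tap2 and Nlrc5 were lower. H2-D1 was lower with T618I alone but at 311 CPM with both constructs, against 268 in Empty/Empty. Irf1 and all 7 tested members other than H2-Ab1 rose with Asxl1-MT2 added to T618I. The part of interferon signalling and Irf1 in the changes of the members was not tested.

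**Figure D4:**
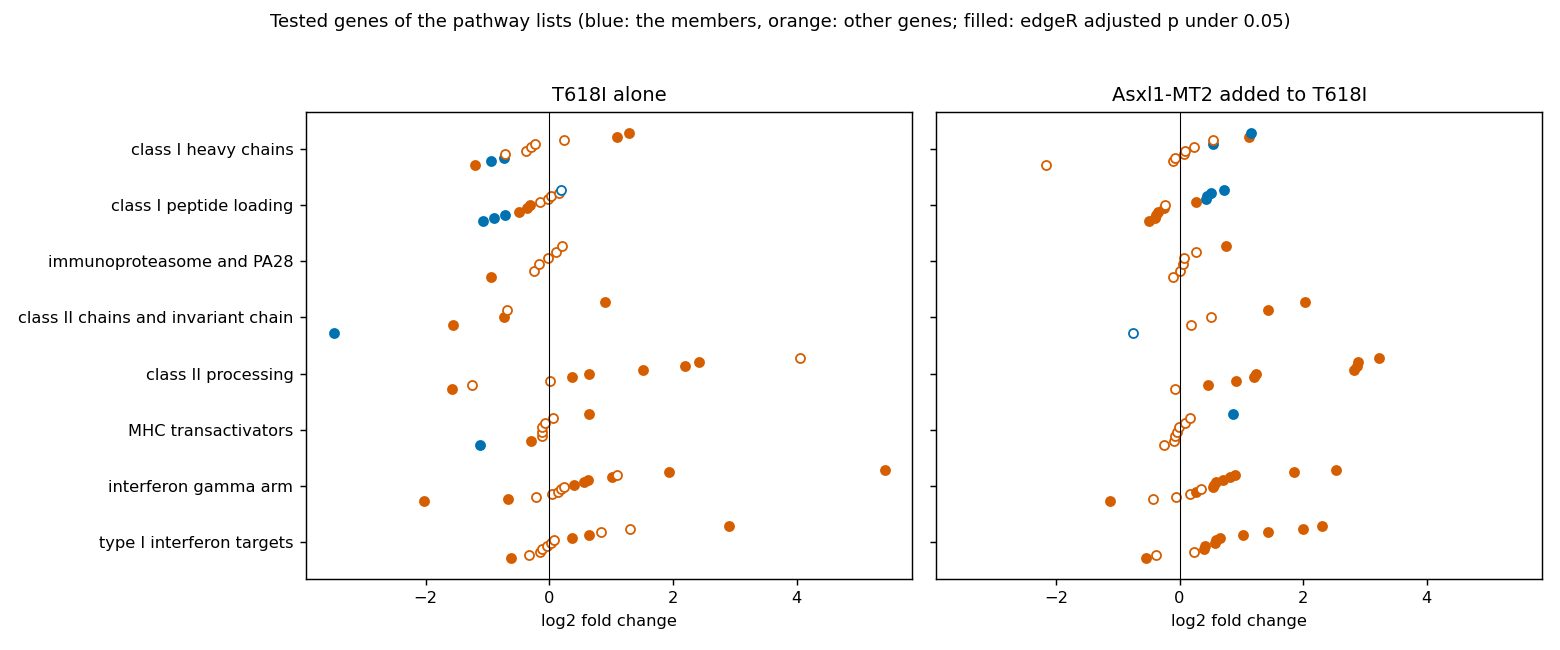
Log2 fold changes of the tested genes of 8 pathway lists with T618I alone (left) and with Asxl1-MT2 added to T618I (right); blue points are members, orange points other genes, and filled points have an edgeR adjusted p under 0.05. With T618I alone, Psmb9 is the only immunoproteasome point called. The interferon gamma list has 6 genes called above 0, Socs1 and Gbp2 among them, and 2 below. Socs1 and Gbp2 passed the filter on low counts only through the T618I groups. The panels share the Empty/T618I libraries.

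Genes whose pattern over the 12 libraries was most like a member were ranked among 9626 genes outside the lists with a mean of at least 5 CPM, by the root mean square difference of centred log2 CPM. The nearest to B2m were Rcbtb2 (0.114), Marveld1 (0.114) and Cldn15 (0.121). H2-K1 had Ogfrl1 (0.0602), Lrmp (0.0609) and Vegfa (0.0629), and Vegfa (0.0800) was also near Tap1, after Rasgrp2 (0.0734) and before Foxo4 (0.0841). H2-D1 had Pgd (0.129), F630028O10Rik (0.130) and Peli2 (0.146), and Tap2 had Fam53b (0.0872) and Slc25a17 (0.0882). Tapbp was nearest to Unc13d (0.0635), Grk6 (0.0751) and Mark2 (0.0753). Nlrc5 had Rcbtb2 (0.192), Mppe1 (0.207) and B3gnt8 (0.213), so Rcbtb2 led for both B2m and Nlrc5. H2-Ab1 had no close match: Serpinf1 (0.641), Matk (0.679) and Glcci1 (0.863) were the nearest, and all 3 were low in both T618I groups.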

How the data were processed

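The authors deposited raw counts per gene symbol for 12 libraries in 4 groups of 3. The build mm10 and the tools Trimmomatic, STAR and DESeq2 are listed, per the submitters' processing notes. The counting tool, annotation and strand setting are not given in the sources used here. Groups were taken from the sample titles and column names.

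Counts were scaled by TMM, filtered with filterByExpr and tested by quasi-likelihood in edgeR 4.0.16 (R 4.3.3), with a mean for each group over all 12 libraries. The 11578 tested symbols held 99.94% of the counts, and 7965 symbols had none. P-values were adjusted by Benjamini-Hochberg over all tested genes and called under 0.05. Exact intervals of low counts cover counting error only. Exon lengths came from GENCODE release M21 and promoters from RefSeq. The code was tested on simulated data. Within every group the libraries varied beyond counting error (chi-square per degree of freedom 3.34 to 14.2), so none was merged for the tests. Counts were summed over the libraries of a group only for the summed counts, ratios and exact intervals of low counts.

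The alternatives were DESeq2 1.42.0, RLE factors, library totals, no filter, 2-group fits, a block by letter, summed class I symbols, and fits without each library or without the letter C libraries. The library totals were added after seeing the data. Named were all 10 members, a fixed set of pathway genes, up to 4 called genes per list with the smallest adjusted p, and the 3 nearest patterns per member. A few genes that this rule names are not reported here. Hspa5, Pdia3, Canx, Sec61a1, Tapbpl, H2-T24, Rfx5, Hoxb8 and Ifngr1 are named in places outside that rule, chosen after their values were seen. The members and lists were chosen with earlier results of these data known.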

Additional observations from a re-analysis of the deposited data

Results flagged for a closer look

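The effect of T618I differed between cells with and without Asxl1-MT2 for 5 members, by the interaction term of the edgeR fit. The difference in log2 fold change was 1.12 for H2-D1, 0.54 for B2m, 0.42 for Tapbp, 0.38 for Tap1 and 0.36 for Tap2, each higher with Asxl1-MT2. Those of H2-D1 and B2m passed in each fit that left out 1 library, and those of Tapbp, Tap1 and Tap2 did not.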

How the results depend on the processing

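Of 951 values of members under another setting, 899 kept direction and call, 27 lost the call, 11 gained it and 14 changed sign. These counts include H2-Ab1, which passed the filter on low counts only through the groups in which it was high. The fit of summed class I symbols enters them for both H2-K1 and H2-D1. All values for T618I alone (160) and for Asxl1-MT2 added to T618I (159) kept both. The sign changes fell on values near 0 or on the summed class I symbols. For Asxl1-MT2 alone, H2-D1 was at -0.0533 without the letter C libraries and between -0.114 and 0.138 without 1 library. Tapbp was at -0.0135 with library totals alone, at -0.00372 with only the 2 groups, and between -0.106 and 0.0960 without 1 library. With class I symbols summed, the value was -0.155 for T618I added to Asxl1-MT2, where H2-D1 had been positive, and 0.0396 for both against neither, where H2-K1 had been negative. The cause was not tested. Of 2651 values of other named genes, 2544 kept direction and call, 107 lost the call and none changed sign. Members called with Asxl1-MT2 alone were 1 with DESeq2, 1 without the letter C libraries and 0 to 1 without 1 library. Interaction calls were 2 with library totals alone and 2 to 6 without 1 library. Over all genes, those called with Asxl1-MT2 alone went from 204 to 450 without the letter C libraries and to between 55 (without Asxl1-MT2/Empty A) and 279 (without Asxl1-MT2/T618I A) without 1 library.

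The letters were not treated as pairs, since not every same-letter pair was over 0.1: same-letter deviations correlated at -0.06 to 0.22, over 0.1 in 7 of 18, and different-letter ones at -0.23 to 0.13, over 0.1 in 4 of 36, and 6 of 12 libraries correlated best with their own letter. With the letter as a replicate block, members called, H2-Ab1 included, were 7, 0, 7, 7, 7 and 6 (T618I alone, Asxl1-MT2 alone, Asxl1-MT2 added, T618I added, both against neither, interaction). H2-D1 was then called for both against neither (0.22, adjusted p = 0.0140) and H2-K1 for the interaction (0.30, adjusted p = 0.0318). H2-Ab1 could not be tested with only the 2 T618I groups. Depth limits H2-Ab1, Cd74 and H2-Aa, which had few counts.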
